A study of Mus musculus with 14 samples.

Results

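The heat shock genes described here are 10 genes for cytosolic and mitochondrial chaperones and for the factor that switches many of them on: Hsph1, Hspa1a, Hspa1b, Dnajb1, Hsp90aa1, Hspa4l, Hspb1, Hspd1, Hspe1 and Hsf1. They were chosen by name, as the rows of the deposited count tables whose Ensembl identifiers carry these symbols in the GRCm38 annotation, and all 10 were found among 53465 gene identifiers. The names were chosen with earlier results of these data known. Bulk RNA was sequenced from the anterior cingulate cortex, which lies along the midline of the frontal lobe, in 4 groups of mice. These were AKR/J mice (AKR) labelled OFL (3 libraries), naive AKR mice (4 libraries), C57BL/6NJ mice (B6N) labelled OFL (3 libraries) and naive B6N mice (4 libraries). OFL libraries were taken after observational fear conditioning, in which a mouse watches another receive shocks, and the naive mice had no such session. Both strains are inbred, no transgene or drug is named for any group, and the labels used here give no age or sex. Whether each library is a different animal is not stated either, and every p-value here therefore refers to the spread among libraries, part or all of which may be technical.

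Chaperones bind unfolded proteins and keep them from clumping. In the cytosol, HSP70 proteins work with J-domain partners, which bring the client and trigger ATP hydrolysis, and with HSP110 proteins, which release the ADP. HSP90 completes the folding of signalling proteins, small heat shock proteins hold clients without ATP, and HSP60 with its lid HSP10 folds proteins inside mitochondria. Heat shock factor 1, the product of Hsf1, is held inactive by chaperones in unstressed cells, and when released it binds repeated GAA units, called heat shock elements, in the promoters of many of these genes.

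Promoter windows (300 bases around a start) were found in the RefSeq table of GRCm38.p6 for 8 of the 10 genes, and Hsp90aa1 and Hsf1 had none there. The stretches below are shown because they hold the letters that heat shock factor 1 is known to recognise in the promoters of genes with large naive strain differences and of the mitochondrial pair. Capitals mark 2 facing units, GAANNTTC or TTCNNGAA, each of which reads as itself on the other strand. Every sequence runs 5′ to 3′ on the gene's own strand.
Hsph1 (chr5:149636352-149636431, minus strand): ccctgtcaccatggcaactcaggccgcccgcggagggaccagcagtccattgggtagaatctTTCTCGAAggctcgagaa
Hspa1a (chr17:34972217-34972296, minus strand): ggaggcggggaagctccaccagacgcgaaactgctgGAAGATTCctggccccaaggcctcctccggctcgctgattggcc
Hspa1b (chr17:34959299-34959378, minus strand): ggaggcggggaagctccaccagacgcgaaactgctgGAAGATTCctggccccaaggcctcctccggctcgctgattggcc
Hspb1 (chr5:135887776-135887855, plus strand): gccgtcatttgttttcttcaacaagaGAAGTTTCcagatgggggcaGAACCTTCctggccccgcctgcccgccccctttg
Hspe1 (chr1:55088053-55088082, plus strand): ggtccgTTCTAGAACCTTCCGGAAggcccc

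The stretches of Hspa1a and Hspa1b are the same letter for letter, and their whole windows match at 296 of 300 bases. The Hspe1 stretch lies before the start of Hspe1 and inside the annotated Hspd1 gene, which is read in the opposite direction, with all 30 bases in a GENCODE exon. RefSeq lists 2 starts of Hspd1, and the stretch lies before one of them, whose window holds the same 3 motifs, and after the other, whose window holds none. The motifs overlap one another, so the capitals form 1 run. Of the 8 genes with a window, 6 held at least 1 pair of units in a window, and the windows of Dnajb1 and Hspa4l held none. Only exact spellings inside the windows were searched for, so inexact or more distant elements would be missed. Counted by window, 7 of the 11 windows of these genes held a pair, against 15.1% of all 32851 windows in the table. The 11 windows are not separate. Those of Hspa1a and Hspa1b are near copies, those of Hsph1 overlap, and Hspe1 shares its motifs with Hspd1. The longer form with 3 units in a row, GAANNTTCNNGAA or TTCNNGAANNTTC, was in a window of 3 of the 8 genes (Hsph1, Hspd1 and Hspe1). By window, it was in 4 of the 11 and in 0.603% of all windows. The printed Hsph1 motif lies before the RefSeq start of its window but after the GENCODE start, with 25 bases of the stretch in a GENCODE exon. The longer form in Hsph1 begins after the RefSeq start too and is not printed. A match describes letters and is not evidence that the factor was bound.

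Total counts per library were 13487311 to 14396289 in AKR OFL, 19073921 to 23782061 in AKR naive, 14063573 to 14526253 in B6N OFL and 20583264 to 25780227 in B6N naive. The 8 glutamatergic neuron markers of the cortex summed to 2290 to 5870 CPM in a library (CPM is a count divided by library size, scaled by TMM over all 14 libraries), against 75.1 to 121 CPM for 6 striatal markers, and no marker was at 0 throughout a group. OFL libraries differed from naive ones in whole classes of RNA. Malat1, a nuclear noncoding RNA, took 0.773% to 0.833% of counts in OFL libraries and 0.0895% to 0.107% in naive ones, and RNAs of the mitochondrial genome took 0.752% to 0.85% in OFL libraries and 1.56% to 1.9% in naive ones. Every OFL minus naive value below therefore compares 2 sets of libraries as well as 2 conditions, and these cannot be told apart.

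Counts per exon base ranked the genes in much the same way in every group. Hsp90aa1, the stress-inducible form of HSP90, stood highest, at mean levels of 201 CPM per kb in AKR OFL, 189 in AKR naive, 218 in B6N OFL and 203 in B6N naive. Hspd1 (HSP60) and Hsph1 (an HSP110) came next in all 4 groups, and in B6N naive their levels did not differ beyond their spread, at 56 ± 2.22 CPM per kb for Hspd1 and 56.5 ± 5.74 for Hsph1 (SD, n = 4). Hspa1a and Hspa1b, which encode the inducible form of HSP70, were the lowest 2 in each group, at 1.55 to 5.29 CPM per kb.

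The comparison of naive mice asked how chaperone expression differed between the strains before any conditioning. Of the 10 genes, 8 were lower in AKR naive than in B6N naive and none was higher (edgeR adjusted p under 0.05), while 19.5% of all 17645 genes tested were called lower and 18.3% higher, 37.8% in all. The median log2 difference of the 10 was -0.31, against 0.01 over all genes tested. As the 10 were chosen with earlier results of these data known, these contrasts with all genes only describe the set. The 5 genes with the widest differences were Hspb1, Hspa1b, Hspa1a, Hsph1 and Dnajb1, and Hspa4l, Hsp90aa1, Hsf1 and the mitochondrial pair had differences of -0.16 or nearer to 0.

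**Figure D1:**
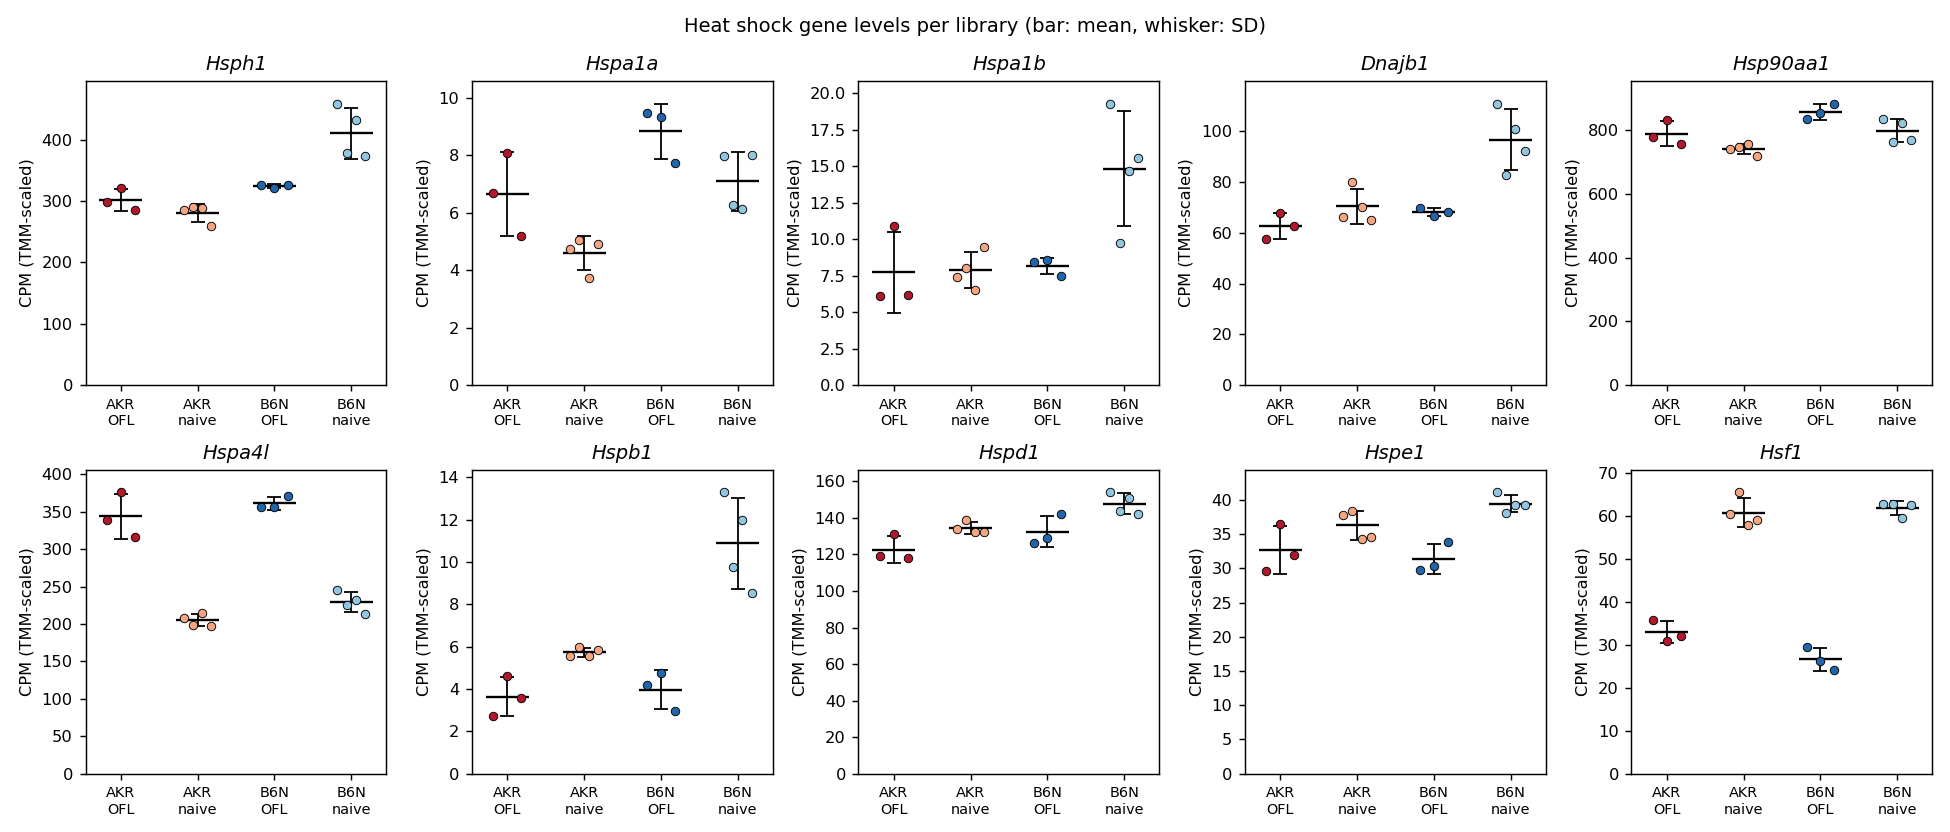
Level of each heat shock gene in every library, in TMM-scaled CPM on linear axes that start at 0. Each point is 1 library (3 per OFL group, 4 per naive group), the horizontal bar is the group mean and the whisker its SD. For Hsph1, Hspa1b, Dnajb1 and Hspb1 the B6N naive libraries have the highest mean of the 4 groups (411, 14.8, 96.6 and 10.9 CPM), while Hspa4l is higher, and Hsf1 and Hspb1 lower, in every OFL library than in any naive library of the same strain.

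Hsph1 encodes the HSP110 that recharges HSP70 (chromosome 5, 149614287 to 149636376, minus strand, GRCm38, 19 exon blocks). It had 286, 291, 288 and 259 CPM in the AKR naive libraries, against 459, 378, 432 and 374 CPM in the B6N naive libraries. No AKR naive library reached the lowest B6N naive one. The log2 difference was -0.55 (SE 0.06, edgeR adjusted p = 1.0e-06), and it lay between -0.59 and -0.49 when any 1 library was left out.

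Dnajb1 encodes the J-domain partner that delivers clients to inducible HSP70 (chromosome 8, 83608193 to 83612653, plus strand). Its levels were 66.3, 80, 70.2 and 65.2 CPM in AKR naive and 111, 82.7, 101 and 92.2 CPM in B6N naive. The groups did not overlap, although the highest AKR naive library came close to the lowest B6N naive one. The log2 difference was -0.45 (SE 0.08, edgeR adjusted p = 1.3e-04).

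Hspa1a and Hspa1b are single-exon copies of 1 HSP70 gene that lie side by side on chromosome 17 (34969190 to 34972156 and 34956436 to 34959238, both minus strand). They shared 1873 stretches of 31 bases, 63.8% of those of Hspa1a and 67.7% of those of Hspa1b, so reads of one may be counted for the other or left out, and each single value is uncertain. Summed, the pair had 12.2, 13.1, 10.3 and 14.4 CPM in AKR naive and 27.3, 16, 20.8 and 23.6 CPM in B6N naive, with no overlap. The log2 difference of the sum was -0.81 (SE 0.13, edgeR adjusted p = 8.3e-05). Taken singly, Hspa1a averaged 4.6 ± 0.592 CPM in AKR naive and 7.09 ± 1.04 CPM in B6N naive (SD, n = 4 each), and Hspa1b averaged 7.87 ± 1.24 CPM in AKR naive and 14.8 ± 3.95 CPM in B6N naive. Both were called lower, at -0.62 (SE 0.12, edgeR adjusted p = 5.2e-04) for Hspa1a and -0.91 (SE 0.16, edgeR adjusted p = 1.9e-04) for Hspa1b. An antisense gene model, Gm20481, covers 19% of the exon bases of Hspa1a and had 0 to 3 counts in a library. Gm10501 and Hspa1l each held 12.1% of the stretches of Hspa1a and 11.1% of those of Hspa1b. Gm10501 had 16 to 145 counts in a library and Hspa1l had 2 to 52, so the sum is uncertain too.

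Hspb1 encodes the small heat shock protein HSP25, which holds unfolded clients and is known in vascular and glial cells of the brain (chromosome 5, 135887919 to 135889563, plus strand). It was at 5.56, 5.98, 5.54 and 5.84 CPM in AKR naive and at 13.3, 9.76, 12 and 8.54 CPM in B6N naive. The AKR naive libraries lay close together and all below the B6N naive ones. The log2 difference was -0.92 (SE 0.12, edgeR adjusted p = 1.1e-05), about the same as for Hspa1b. In bulk tissue, fewer cells of a type and less RNA per cell cannot be told apart. The 8 endothelial markers summed to 418 to 472 CPM in AKR naive and 478 to 505 CPM in B6N naive, with 3 called lower and 2 higher, and the 8 mural cell markers to 267 to 306 CPM in AKR naive and 261 to 275 CPM in B6N naive, with 3 of 7 tested lower and 3 higher. Astrocyte markers summed to 3618 to 4202 CPM in AKR naive and 4064 to 4417 CPM in B6N naive, with 3 of 8 lower and 1 higher. Over all genes tested between the naive groups, 37.8% were called, 19.5% lower and 18.3% higher, and the calls of each marker list went both ways. The part of these markers in the Hspb1 difference was not tested.

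Smaller differences were found for 3 more genes. Hspa4l, a second HSP110 (chromosome 3, 40744495 to 40796103, plus strand), had 208, 199, 215 and 198 CPM in AKR naive and 245, 226, 232 and 214 CPM in B6N naive. The groups overlapped by 1 library each, and the log2 difference was -0.16 (SE 0.04, edgeR adjusted p = 0.0063). Hspd1 (chromosome 1, 55077835 to 55088243, minus strand) averaged 134 ± 3.35 CPM in AKR naive and 148 ± 5.87 CPM in B6N naive (SD, n = 4 each), a log2 difference of -0.14 (SE 0.04, edgeR adjusted p = 0.0056). Hsp90aa1 (chromosome 12, 110690605 to 110702728, minus strand) averaged 741 ± 16 CPM in AKR naive and 799 ± 37.2 CPM in B6N naive. Its log2 difference of -0.11 (SE 0.04, edgeR adjusted p = 0.03) was no longer called without AKR naive replicate 4 (adjusted p = 0.102), B6N naive replicate 1 (0.123) or B6N naive replicate 3 (0.105).

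The other 2 genes were not called between the naive groups. Hspe1, the HSP10 lid (chromosome 1, 55088132 to 55091307, plus strand), had 37.8, 38.4, 34.3 and 34.6 CPM in AKR naive and 41.1, 38.1, 39.2 and 39.2 CPM in B6N naive. The log2 difference was -0.12 (SE 0.05, edgeR adjusted p = 0.07), and it was called without AKR naive replicate 1 (0.0498) or replicate 2 (0.0352). Hsf1 itself (chromosome 15, 76477422 to 76501913, plus strand) had 60.5, 65.5, 57.9 and 59.1 CPM in AKR naive and 62.7, 62.7, 59.5 and 62.6 CPM in B6N naive, which overlap throughout. Its log2 difference was -0.02, with a 95% interval of -0.11 to 0.06 (edgeR adjusted p = 0.71).

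Some libraries were the highest of their group for most of these genes. Within B6N naive, replicate 1 was the highest library for 9 of the 10 genes, and within AKR OFL, replicate 2 was the highest for 9 of the 10. Within AKR naive, replicate 2 was the highest for 7. Within B6N OFL no library stood out in this way, with replicates 1, 2 and 3 highest for 3, 2 and 5 genes. A like count over all genes was not made. Without B6N naive replicate 1 the naive differences were -0.38 or wider for Hsph1, Hspa1a, Hspa1b, Dnajb1 and Hspb1, and all 5 were still called. The number of called genes stayed between 7 and 9 when each naive library was left out in turn.

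In OFL libraries the strain differences were nearer to 0 than in naive libraries for 8 of the 10 genes, all but Hsp90aa1 and Hsf1. Only Hsf1 was called, 1 of 10 genes, while 16.4% of the 17994 genes tested were called and 7.50% were higher, so the share of the 10 was near or under the background. The median log2 difference of the 10 genes was -0.11, against 0.00 over all genes tested.

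**Figure D2:**
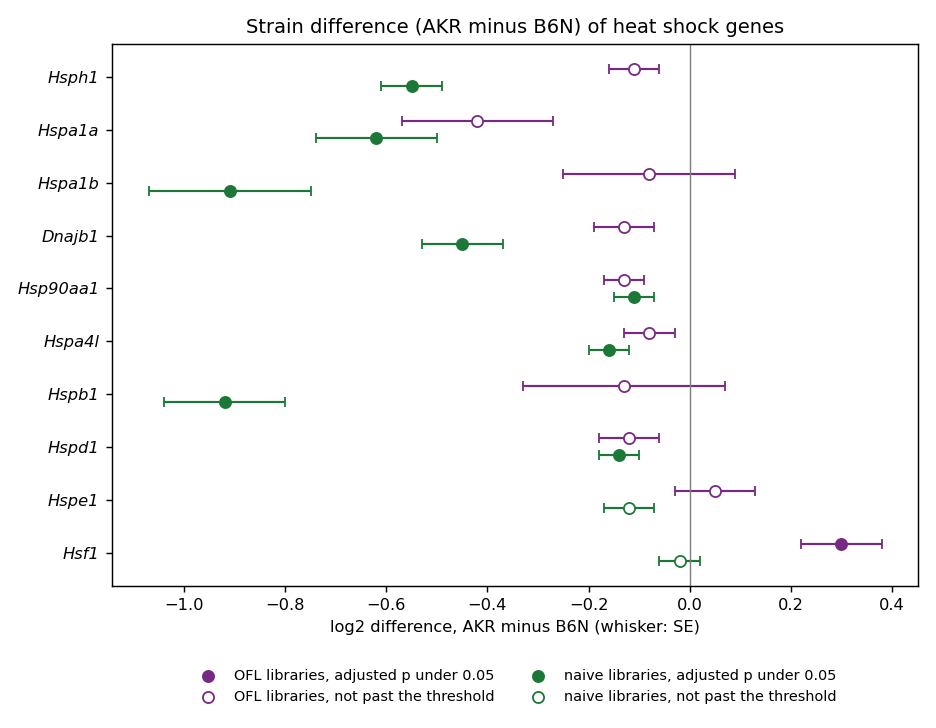
Strain difference of each gene, AKR minus B6N, on the log2 scale, in OFL libraries (purple, upper point) and naive libraries (green, lower point). Whiskers are standard errors and filled points have an edgeR adjusted p under 0.05. The naive values of Hsph1, Hspa1a, Hspa1b, Dnajb1 and Hspb1 lie between -0.92 and -0.45, and in OFL libraries the filled point is that of Hsf1, at 0.30.

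Hsph1 had 299, 321 and 286 CPM in AKR OFL and 326, 321 and 327 CPM in B6N OFL. Its highest AKR OFL library and its lowest B6N OFL library were almost level. The log2 difference was -0.11, with a 95% interval of -0.20 to -0.02 (edgeR adjusted p = 0.11), and it was called without AKR OFL replicate 2 (-0.16, adjusted p = 0.0244). Hsp90aa1 averaged 790 ± 38.8 CPM in AKR OFL and 857 ± 25 CPM in B6N OFL (SD, n = 3 each). Its log2 difference of -0.13 (SE 0.04, edgeR adjusted p = 0.052) was close to its naive value and was called without AKR OFL replicate 2 (0.013) or B6N OFL replicate 1 (0.0141), or when libraries were scaled over coding genes free of other-strand overlap (0.0428).

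Among the inducible partners, Dnajb1 had 57.5, 67.8 and 62.9 CPM in AKR OFL and 69.7, 66.6 and 68.4 CPM in B6N OFL, and the groups overlapped. Its log2 difference was -0.13 (SE 0.06, edgeR adjusted p = 0.18). The summed Hspa1a and Hspa1b had 12.8, 18.9 and 11.4 CPM in AKR OFL and 17.9, 17.8 and 15.2 CPM in B6N OFL. Replicate 2 of AKR OFL was above every B6N OFL library, and the log2 difference of the sum was -0.25 (SE 0.14, edgeR adjusted p = 0.26). Hspa1a alone averaged 6.64 CPM in AKR OFL and 8.83 CPM in B6N OFL, a log2 difference of -0.42 (SE 0.15, edgeR adjusted p = 0.06), and was called without AKR OFL replicate 2 (-0.59, adjusted p = 0.013) or B6N OFL replicate 3 (-0.50, 0.0339). Hspb1 had 2.74, 4.6 and 3.57 CPM in AKR OFL and 4.18, 4.76 and 2.97 CPM in B6N OFL, with a log2 difference of -0.13 and a 95% interval of -0.53 to 0.27 (edgeR adjusted p = 0.74). At these few CPM an interval of that width does not show that the strains are alike.

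The remaining chaperones, Hspa4l, Hspd1 and Hspe1, had OFL strain differences of -0.08 (SE 0.05), -0.12 (SE 0.06) and 0.05 (SE 0.08), and none passed the test, although Hspa4l did without AKR OFL replicate 2 (-0.15, edgeR adjusted p = 0.0446). Hsf1 had 35.8, 31 and 32.1 CPM in AKR OFL and 29.4, 26.3 and 24.2 CPM in B6N OFL, with no overlap. It was higher in AKR OFL by 0.30 on the log2 scale (SE 0.08, edgeR adjusted p = 0.014). That call was lost without AKR OFL replicate 1 (0.103), B6N OFL replicate 2 (0.0778) or B6N OFL replicate 3 (0.0672).

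Whether the strain difference itself changed between conditions was tested as an interaction, the OFL minus naive difference in AKR minus the same difference in B6N, in 1 fit of all 14 libraries. It draws on the same libraries as the other comparisons. Of the 10 genes, 2 were called, Hsph1 and Hsf1, both positive, while 5.15% of the 20291 genes tested were called and 3.61% were positive. The interaction was above 0 for 9 of the 10 genes, with a median of 0.27 against 0.01 over all genes tested.

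For Hsph1 the interaction was 0.44 (SE 0.08, edgeR adjusted p = 0.0011), and it was called with any 1 of the 14 libraries left out, at values of 0.39 to 0.49. Hsf1 had an interaction of 0.33 (SE 0.09, edgeR adjusted p = 0.029), and its call held when any of 8 libraries was left out. The 6 libraries whose absence ended the Hsf1 call were AKR OFL replicate 1 (adjusted p = 0.132), AKR naive replicates 3 (0.0565) and 4 (0.0532), B6N OFL replicates 2 (0.0796) and 3 (0.118) and B6N naive replicate 1 (0.0535). Among the genes that were not called, the 3 of highest interaction were Hspa1b (0.84, SE 0.28, edgeR adjusted p = 0.08), Hspb1 (0.80, SE 0.26, adjusted p = 0.068) and Dnajb1 (0.34, SE 0.11, adjusted p = 0.082). Each of the 3 passed without B6N naive replicate 2 (adjusted p of 0.00498, 0.0425 and 0.0103). Hspa1b also passed without AKR naive replicate 4 (0.0498), Hspb1 without AKR OFL replicate 1 (0.0388) or B6N naive replicate 4 (0.0228), and Dnajb1 without AKR naive replicate 2 (0.0228). Hspa1a was at 0.21 (SE 0.20, edgeR adjusted p = 0.64) and the summed copies at 0.57 (SE 0.22, adjusted p = 0.14), and Hspe1 was at 0.18 (SE 0.09, adjusted p = 0.33). For Hsp90aa1, Hspd1 and Hspa4l it was -0.01, 0.03 and 0.09, with 95% intervals of -0.12 to 0.10, -0.10 to 0.17 and -0.05 to 0.23.

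**Figure D3:**
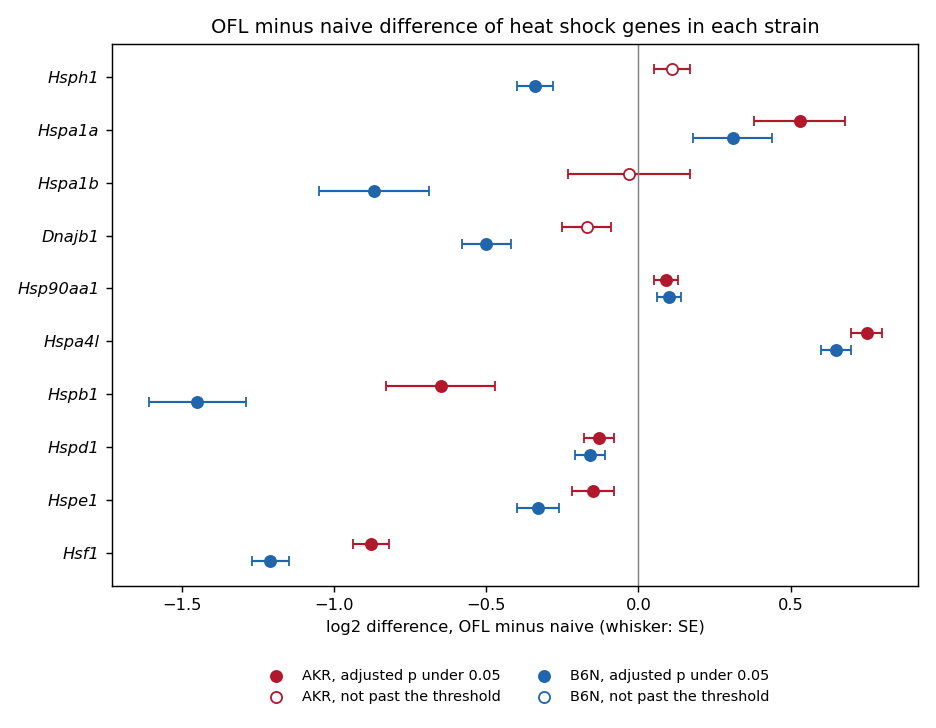
Difference between OFL and naive libraries of each gene, OFL minus naive on the log2 scale, in AKR (red, upper point) and B6N (blue, lower point). Whiskers are standard errors and filled points have an edgeR adjusted p under 0.05. Hspa4l lies at 0.75 in AKR and 0.65 in B6N, Hsf1 at -0.88 in AKR and -1.21 in B6N, and Hsph1 at 0.11 in AKR and -0.34 in B6N.

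The OFL minus naive differences within each strain are the values that the interaction compares. They do not place it in either strain, since their sizes moved with the scaling. In AKR, 7 of the 10 genes were called, 3 higher and 4 lower, while 78.7% of all 20291 genes tested were called, 39.8% higher and 38.8% lower. In B6N all 10 were called, 3 higher and 7 lower, while 78.4% of all genes tested were called, 40.0% higher and 38.4% lower. With shares of called genes that high everywhere, the counts of the 10 are not a result about heat shock genes, and the sizes are given as values. A scaling over coding genes free of other-strand overlap moved the median of all genes by 0.17 in AKR and 0.18 in B6N, and the AKR calls were then 9570 higher and 6141 lower, against 8085 higher and 7883 lower, and the B6N calls 9673 higher and 6062 lower, against 8118 higher and 7798 lower. Differences within that shift, those of Hsp90aa1, Hspd1, Hspe1, Hsph1, Hspa1b and Dnajb1 in AKR and of Hsp90aa1 and Hspd1 in B6N, changed sign or size with the scaling. For B6N, Hsph1 was at -0.15 under that scaling (edgeR adjusted p = 0.0187), Hspe1 at -0.15 (0.0445) and Dnajb1 at -0.32 (5.23e-04). For AKR, Hsph1 was then called, at 0.29 (6.60e-05), and Hsp90aa1 was at 0.27 in AKR and 0.29 in B6N, against 0.09 and 0.10 with the scaling over all genes.

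Hspa4l was called higher, and Hsf1 and Hspb1 lower, in OFL libraries of both strains. Hspa4l had 339, 376 and 316 CPM in AKR OFL, against 208, 199, 215 and 198 CPM in AKR naive, and 356, 356 and 371 CPM in B6N OFL, against 245, 226, 232 and 214 CPM in B6N naive. Every OFL library was above every naive library, by 0.75 on the log2 scale in AKR (SE 0.05, edgeR adjusted p = 2.7e-13) and 0.65 in B6N (SE 0.05, edgeR adjusted p = 3.7e-12). For Hsf1 the order was reversed. The levels were 33 ± 2.53 CPM in AKR OFL (SD, n = 3) and 60.8 ± 3.34 CPM in AKR naive (SD, n = 4), and 26.6 ± 2.62 CPM in B6N OFL and 61.8 ± 1.57 CPM in B6N naive. The log2 differences of Hsf1 were -0.88 in AKR (SE 0.06, edgeR adjusted p = 7.0e-13) and -1.21 in B6N (SE 0.06, edgeR adjusted p = 1.3e-15).

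With the scaling over all genes, Hsph1, Dnajb1 and Hspa1b were lower in B6N OFL than in B6N naive and were not called in AKR. In B6N the log2 differences were -0.34 for Hsph1 (SE 0.06, edgeR adjusted p = 7.2e-06), -0.50 for Dnajb1 (SE 0.08, adjusted p = 1.6e-06) and -0.87 for Hspa1b (SE 0.18, adjusted p = 1.1e-04). In AKR they were 0.11 (SE 0.06), -0.17 (SE 0.08) and -0.03 (SE 0.20), with edgeR adjusted p-values of 0.095, 0.057 and 0.9. Dnajb1 was called in AKR without AKR OFL replicate 2 (-0.23, adjusted p = 0.0238), AKR naive replicates 1 (0.0409) or 4 (0.0282), or B6N naive replicates 1 (0.0343) or 2 (0.028). Of these 3 genes, Hsph1 alone passed the test of the difference between the strains, as given above. For Hspb1, every OFL library was below every naive library of its strain, with log2 differences of -0.65 in AKR (SE 0.18, edgeR adjusted p = 0.0022) and -1.45 in B6N (SE 0.16, edgeR adjusted p = 6.7e-09).

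Hsp90aa1 was called higher in OFL libraries of both strains by a small margin. It averaged 790 ± 38.8 CPM in AKR OFL (SD, n = 3) and 741 ± 16 CPM in AKR naive (SD, n = 4), a log2 difference of 0.09 (SE 0.04, edgeR adjusted p = 0.042), and 857 ± 25 CPM in B6N OFL and 799 ± 37.2 CPM in B6N naive, a difference of 0.10 (SE 0.04, edgeR adjusted p = 0.025). The AKR call was lost without AKR OFL replicates 1 (0.0619) or 2 (0.05 on the log2 scale, adjusted p = 0.326), AKR naive replicates 1 (0.0536), 3 (0.0537) or 4 (0.11), B6N OFL replicate 2 (0.0578) or B6N naive replicate 4 (0.0589). The B6N call was lost without B6N OFL replicates 2 (0.0607) or 3 (0.121) or B6N naive replicates 2 (0.0842) or 4 (0.104).

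The 2 copies of HSP70 had unlike differences between the library sets. Hspa1a was called higher in OFL libraries, at 0.53 in AKR (SE 0.15, edgeR adjusted p = 0.0026) and 0.31 in B6N (SE 0.13, edgeR adjusted p = 0.034), while the sum of the copies was 0.20 in AKR (SE 0.16, adjusted p = 0.26) and -0.37 in B6N (SE 0.14, adjusted p = 0.022). The AKR call of Hspa1a was lost without AKR OFL replicate 2 (0.0612), and the B6N call without B6N OFL replicates 1 (0.133) or 2 (0.119) or B6N naive replicates 2 (0.0891) or 3 (0.0962). The ratio of Hspa1b to Hspa1a counts was 1.15 ± 0.221 in AKR OFL (SD, n = 3) and 1.71 ± 0.168 in AKR naive (SD, n = 4), and 0.927 ± 0.0415 in B6N OFL and 2.08 ± 0.413 in B6N naive. With the shared sequence of the copies, neither direction can be assigned to 1 copy.

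The mitochondrial pair Hspd1 and Hspe1, which are read in opposite directions and whose annotated exons share 112 bases, had similar ratios in 3 groups and a higher one in B6N OFL. Hspd1 counts were 3.77 ± 0.234 times Hspe1 counts in AKR OFL (SD, n = 3), 3.7 ± 0.152 times in AKR naive (SD, n = 4), 4.22 ± 0.0249 times in B6N OFL and 3.76 ± 0.0954 times in B6N naive. Hspe1 differed by -0.15 in AKR (SE 0.07, edgeR adjusted p = 0.04) and by -0.33 in B6N (SE 0.07, edgeR adjusted p = 5.6e-05), and Hspd1 by -0.13 in AKR (SE 0.05, adjusted p = 0.016) and -0.16 in B6N (SE 0.05, adjusted p = 0.0028). In AKR the Hspd1 call was lost without AKR OFL replicates 1 (0.0713) or 3 (0.093), and the Hspe1 call without AKR OFL replicates 1 (0.27) or 3 (0.11) or AKR naive replicates 1 (0.0916) or 2 (0.114). Of all members, Hspd1 was nearest to Hspe1 and Hspe1 nearest to Hspd1 across the 14 libraries, at a root mean square distance of 0.086 between centred log2 CPM profiles. Among 20290 genes compared, 260 were nearer to Hspd1 than Hspe1 was, and 76 were nearer to Hspe1 than Hspd1 was. Processed copies elsewhere in the genome share sequence with several members, so reads there may be counted for the copy or left out. Of the 31-base stretches of Hspd1, 46.5% were also in Hspd1-ps3, which had 8 to 25 counts in a library. The like share was 46.7% of Hsp90aa1 in Gm12346, which had 43 to 97 counts, and 52.3% of Hspb1 in Hsp25-ps1, which had 0 to 2. Hsph1 shared no stretch with another gene.

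By the same distance, the profile of Hsph1 over the 14 libraries was most like those of Zmynd8, a chromatin reader gene (0.071), Xbp1, a factor of the endoplasmic reticulum stress response (0.073), Gpt2, a mitochondrial aminotransferase gene (0.082), Pdia6, a disulfide isomerase gene (0.086), and Hyou1, an HSP110 relative of the endoplasmic reticulum (0.09), among 20290 genes compared. Dnajb1 was its nearest member, at 0.13, with 43 genes nearer. These distances describe levels in libraries of 4 groups and say nothing of shared control.

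The other genes of the chaperone network were counted in lists, to be read against the 19.5% of all genes tested that were lower and the 18.3% that were higher between naive groups. The lists too were chosen with earlier results of these data known. Of 9 other HSP70 and HSP110 genes, 5 were lower in AKR naive than in B6N naive (55.6%) and none was higher, with a median log2 difference of -0.11. The constitutive HSP70 gene Hspa8 was at 679, 710, 696 and 641 CPM in AKR naive and 1205, 1097, 1203 and 1130 CPM in B6N naive, a log2 difference of -0.76 (SE 0.04, edgeR adjusted p = 1.4e-10). Unlike most members, Hspa8 also differed in OFL libraries, at 748, 764 and 698 CPM in AKR OFL and 1111, 1146 and 1233 CPM in B6N OFL, a log2 difference of -0.67 (SE 0.05, edgeR adjusted p = 3.1e-09). Its groups did not overlap in either condition. Hspa2, a close HSP70 relative, was lower by a similar amount in both, at -0.53 in OFL and -0.57 in naive libraries.

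Of 5 other small heat shock genes tested, 2 were lower in AKR naive and none was higher. The share called, 40%, was near the 37.8% over all genes. Hspb8, which works with the cochaperone BAG3 in the removal of damaged proteins, averaged 3.33 CPM in AKR OFL and 10.2 in B6N OFL, and 5.87 CPM in AKR naive and 17.5 in B6N naive. Its log2 differences were -1.63 in OFL libraries (SE 0.14, edgeR adjusted p = 3.2e-08) and -1.58 in naive libraries (SE 0.10, edgeR adjusted p = 1.2e-09). Cryab, the lens and glial crystallin, was lower in AKR naive by -0.35 (SE 0.06, edgeR adjusted p = 3.4e-04).

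Among the partners of HSP70 and HSP90, 9 of 27 other J-domain genes were lower in AKR naive and 2 higher (median -0.02), and 12 of 26 cochaperone genes were lower (46.2%) and 1 higher (median -0.12). The J-domain genes called in either direction, 40.7%, were near the 37.8% over all genes. The called J-domain genes included Dnajb2 (-0.54), Dnaja1 (-0.23), Dnajb4 (-0.28) and Dnaja4 (-0.29). Among cochaperones, Fkbp5, an HSP90 partner of the glucocorticoid receptor, was lower by -1.14 (SE 0.08, edgeR adjusted p = 3.8e-09) and Chordc1, an HSP90 partner, by -0.44 (SE 0.06, edgeR adjusted p = 7.0e-06). Unc45a, a myosin chaperone, was higher by 0.28. In the interaction, where 5.15% of all genes were called, 4 of the 26 cochaperone genes were called (15.4%), all positive: Fkbp5 (0.95), Cdc37l1 (0.60), Chordc1 (0.41) and Stip1 (0.27), the gene for the adaptor that joins HSP70 to HSP90. The J-domain gene Dnajb4 (0.33) and Hsp90ab1, the constitutive HSP90 (0.24, SE 0.06, edgeR adjusted p = 0.0079), were also called. Dnajb4 was 1 of 27 other J-domain genes tested (3.7%), under the 5.15% over all genes. No gene was called among the 9 other HSP70 and HSP110 genes, the 5 small heat shock genes or the 14 chaperonin and prefoldin genes. The same held for the 17 mitochondrial genes and the 5 other heat shock factor genes and regulators. Without AKR OFL replicate 2 the calls of Stip1 (adjusted p = 0.0684) and Dnajb4 (0.0932) were lost.

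The cytosolic chaperonin and prefoldin list had 6 of 14 genes lower in AKR naive and none higher, with small values such as -0.19 for Cct4, and a median of -0.09. The mitochondrial list had 6 of 17 genes higher in AKR naive and 1 lower, and a median of 0.06. In either direction, 42.9% of the chaperonin and prefoldin list and 41.2% of the mitochondrial list were called, near the 37.8% over all genes, and these counts are not a result about the lists. Called genes of the mitochondrial list included Htra2, a protease of the intermembrane space (0.32), and Lonp1, the matrix protease (0.14). Trap1, the mitochondrial HSP90 (0.14), lost its call without AKR naive replicate 4 (adjusted p = 0.0529) or B6N naive replicate 3 (0.0589).

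Of 22 other genes known to be induced through heat shock factor 1, 11 were lower in AKR naive (50%) and none higher (median -0.14). Over all genes tested, 19.5% were lower. Most of the 11 are chaperones or cochaperones already counted in the lists above, so this count is largely not separate from theirs. Ubb, a polyubiquitin gene, was lower by -0.71 in naive libraries (SE 0.08, edgeR adjusted p = 3.1e-06) and by -1.04 in OFL libraries (SE 0.04, edgeR adjusted p = 1.3e-12). Serpinh1, the collagen chaperone gene HSP47, was lower in AKR naive by -0.65 (SE 0.07, edgeR adjusted p = 1.1e-06). Of 5 other heat shock factor genes and regulators tested, Hsf4 alone was called between naive groups, at 0.32, above B6N (SE 0.06, edgeR adjusted p = 4.7e-04). That share, 20%, was under the 37.8% called over all genes.

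**Figure D4:**
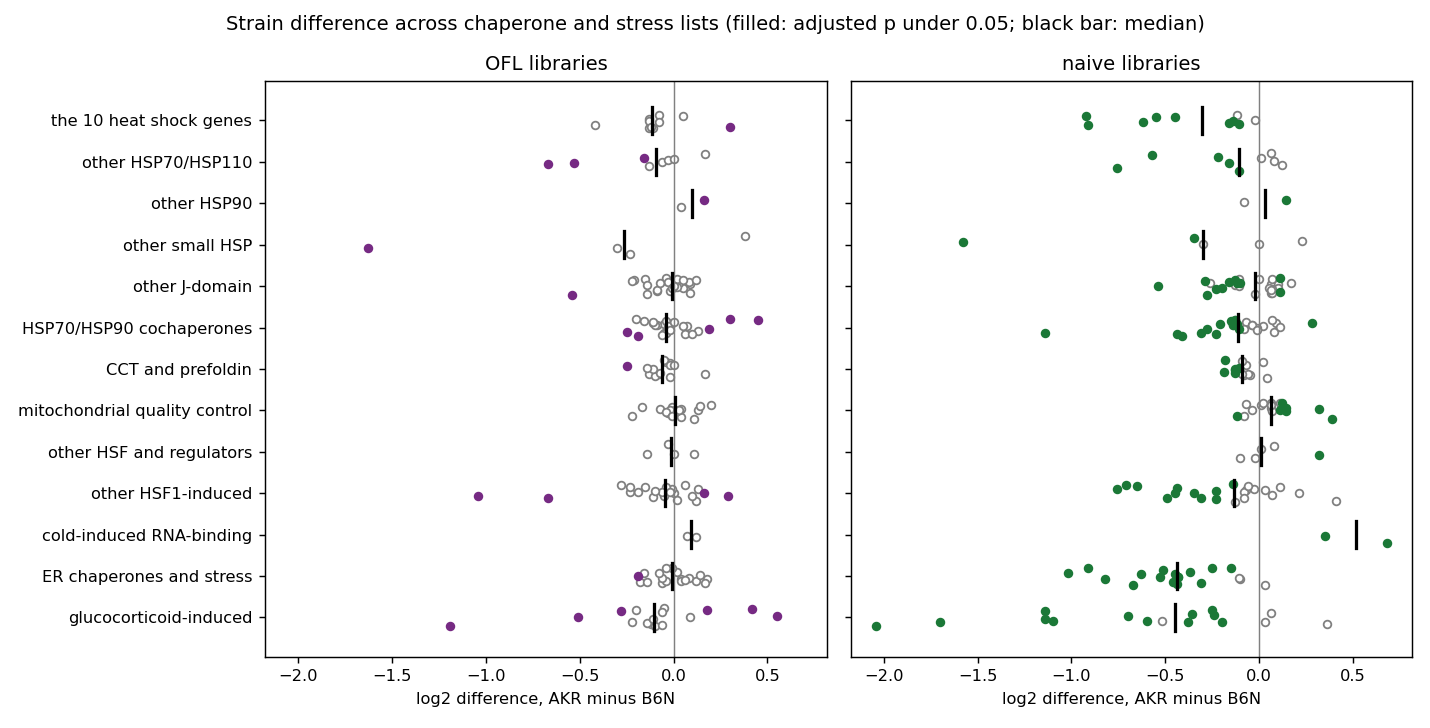
Strain differences (AKR minus B6N, log2) of the 10 heat shock genes and of 12 lists of chaperone and stress genes, in OFL libraries on the left and naive libraries on the right. Each point is a gene, filled where the edgeR adjusted p is under 0.05, the black bar is the median, and points are spread vertically for legibility. In naive libraries the medians of the 10 genes (-0.31) and of the endoplasmic reticulum genes (-0.44) lie left of 0 and the mitochondrial one (0.06) right of it.

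The cold-induced RNA-binding genes Cirbp and Rbm3, known to rise in mildly cooled cells, had strain differences of the other sign from the heat shock genes. Cirbp was at 66, 69.3, 70 and 72.2 CPM in AKR naive and 39.4, 47.6, 41.3 and 45.1 CPM in B6N naive, a log2 difference of 0.68 (SE 0.05, edgeR adjusted p = 1.9e-08). Rbm3 was at 90.7, 93.8, 94.5 and 99.4 CPM in AKR naive and 68.9, 80.7, 71.8 and 74.9 CPM in B6N naive, a log2 difference of 0.35 (SE 0.05, edgeR adjusted p = 9.8e-06). Neither gene overlapped between the naive groups. In OFL libraries Cirbp had 36, 32.2 and 36.1 CPM in AKR and 35.5, 32.4 and 30.4 CPM in B6N, and the differences were 0.07 for Cirbp (SE 0.07, edgeR adjusted p = 0.57) and 0.12 for Rbm3 (SE 0.06, adjusted p = 0.21). The interaction was -0.60 for Cirbp (SE 0.09, edgeR adjusted p = 1.9e-04) and -0.23 for Rbm3 (SE 0.08, adjusted p = 0.091), and that of Rbm3 was called without B6N OFL replicate 1 (0.0239) or B6N naive replicate 2 (0.0241).

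**Figure D5:**
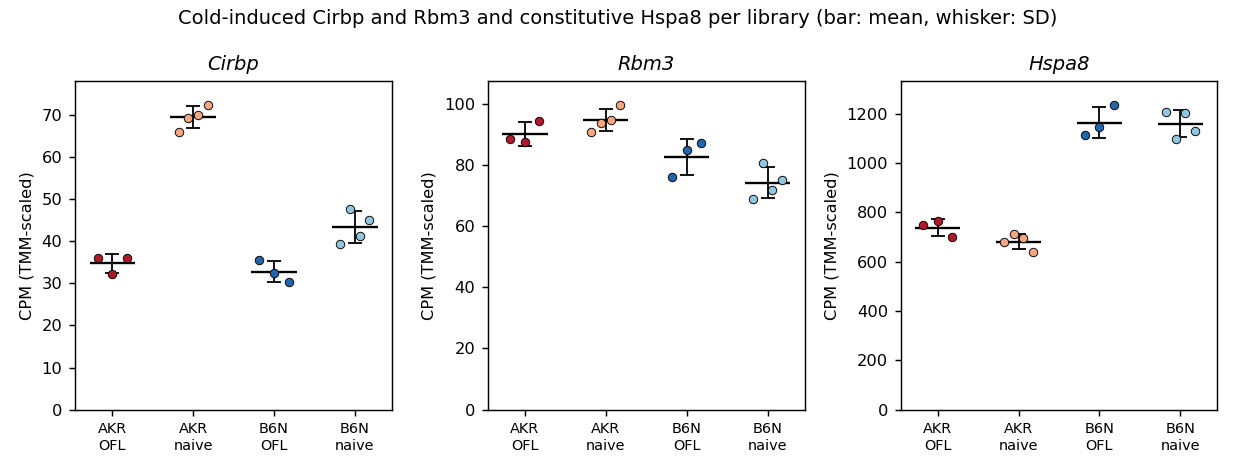
Levels of Cirbp, Rbm3 and Hspa8 in every library, in TMM-scaled CPM on linear axes that start at 0, with group means (bars) and SDs (whiskers). Cirbp is highest in the AKR naive libraries (66 to 72.2 CPM), and Hspa8 is lower in both AKR groups than in both B6N groups.

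Chaperones of the endoplasmic reticulum and genes induced by glucocorticoids also differed between the naive groups. Of 19 endoplasmic reticulum genes, 16 were called lower in AKR naive and none higher (median -0.44). In the interaction 14 of the 19 were called, all positive, while 3.61% of all genes tested were called positive. The median interaction of the list was 0.42. Hspa5, the HSP70 of that compartment, was at -0.82 between naive groups (SE 0.07, edgeR adjusted p = 7.8e-08) with an interaction of 0.86 (SE 0.13, edgeR adjusted p = 1.4e-04). Of 16 glucocorticoid-induced genes, 12 were called lower in AKR naive and none higher. In the interaction 6 of the 16 were called, all positive, Fkbp5 among them. The part of these programs in the heat shock gene differences was not tested.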

How the data were processed

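Bulk RNA of 14 anterior cingulate cortex libraries was analysed in 4 groups of strain and condition. Per the labels' protocols, total RNA was extracted with Trizol and libraries were made with a TruSeq kit. Per the submitters' processing notes, the tools were TopHat2 2.1.1, HTSeq, cutadapt 2.7, CASAVA and edgeR, on GRCm38, a C57BL/6J genome. Whether AKR reads align to that genome as often as B6N reads was not tested for any strain difference. The annotation release and strand setting are not given in the sources used here. The authors deposited raw counts per Ensembl gene, in one table of naive and another of OFL libraries, and both were used as deposited.

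Symbols, positions and exon lengths came from GENCODE on GRCm38, which named 53360 of 53465 identifiers. Genes passing edgeR's filter by group (minimum count 10, minimum total 15) were scaled by TMM and tested with the two-sided quasi-likelihood F-test of edgeR 4.0.16 (R 4.3.3, limma 3.58.1), with Benjamini-Hochberg adjustment over all genes tested and a threshold of 0.05. Strain differences were fitted on the 8 naive or the 6 OFL libraries alone, and all else in 1 fit of 14 libraries. SE is the log2 difference over the square root of F. edgeR's common coefficient of biological variation was 0.0446 (naive), 0.0456 (OFL) and 0.045 (all libraries). The steps were tested on simulated counts.

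Alternatives were DESeq2 1.42.0, its size factors in edgeR, scaling over coding genes, no filter, a replicate block, summed Hspa1a and Hspa1b, 1 fit of all libraries for the strain differences, and leaving out each library. The members and lists were chosen with earlier results of these data known. All 10 members passed the filter in every comparison and all are given. From each list the text names up to 4 called genes of lowest p (failing any call, the gene of lowest p), though not all of these are printed. Cirbp, Rbm3 and the 5 genes nearest to Hsph1 by profile distance (pseudocount 0.1 CPM) are always named. Shared sequence was counted as common stretches of 31 bases in spliced transcripts.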

Additional observations from a re-analysis of the deposited data

Results flagged for a closer look

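In each of 2 groups, 1 library stood apart from the other 3 for a heat shock gene. Hsph1 was low in AKR naive replicate 4, at 259 CPM against 286 to 291 CPM in the other 3 libraries, and the gap to the nearest library was 0.836 of the range of the group. Hsf1 was low in B6N naive replicate 3, at 59.5 CPM against 62.6 to 62.7 CPM in the others, with a gap of 0.959 of the range. That range is narrow, as the SD of Hsf1 in B6N naive was 2.54% of the mean. The 10 genes gave 20 such groups, and chance flags about 1 in 20 groups. Without AKR naive replicate 4 the naive strain difference of Hsph1 was still called.

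The OFL minus naive difference differed between the strains for 2 genes. The difference in AKR minus that in B6N was 0.44 for Hsph1 (edgeR adjusted p = 0.0011) and 0.33 for Hsf1 (edgeR adjusted p = 0.029), both on the log2 scale.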

How the results depend on the processing

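The naive strain count of 8 genes lay between 7 and 9 in every alternative, and the B6N count of 10 between 8 and 10. Of the strain differences in OFL libraries, 1 gene was called, against 2 with scaling over coding genes, 3 without a filter, 2 with the replicate block, and 0 to 5 when a library was left out (0 without AKR OFL replicate 1 or B6N OFL replicate 2, 5 without AKR OFL replicate 2). Over all genes, 2943 were called there, and 1934 to 3514 when a library was left out, the lowest without B6N OFL replicate 2. In AKR, the OFL minus naive count of 7 was 4 to 8 when a library was left out, with 4 without AKR OFL replicate 1. The interaction count of 2 became 5 without a filter and 1 to 5 with a library left out, 5 without B6N naive replicate 2 and 1 without AKR naive replicate 3, B6N naive replicate 1 or B6N OFL replicates 2 or 3.

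Signs turned for small values. OFL minus naive in AKR, scaling over coding genes gave Hspa1b 0.15, Dnajb1 0.02, Hspd1 0.05 and Hspe1 0.03, and in B6N it gave Hspd1 0.02. Hspa1b in AKR was 0.01 with DESeq2 size factors, 0.01 with DESeq2, 0.03 with the replicate block and -0.37 to 0.11 with a library left out (0.07 without AKR naive replicate 4, 0.11 without AKR OFL replicates 1 or 3). Hspa1a in B6N became -0.37 once summed with Hspa1b. With a library left out, the OFL strain difference ranged from -0.42 to 0.06 for Hspa1b (0.05 without AKR OFL replicate 3), from -0.34 to 0.03 for Hspb1 (0.01 without B6N OFL replicate 2) and from -0.04 to 0.12 for Hspe1, and the interaction from -0.05 to 0.02 for Hsp90aa1 (0.00 without AKR OFL replicate 1, 0.01 without B6N naive replicates 2 or 4 or B6N OFL replicate 3) and from -0.02 to 0.09 for Hspd1. The cause was not tested. Over named single genes and alternatives, 777 values kept direction and side of the threshold, 44 lost a call, 31 gained one and 23 changed sign.

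Replicate numbers do not pair the libraries: correlations of same-numbered deviations were -0.0426 to 0.0439. The replicate block called the naive members 8 times, as without it. Depth limits Hspa1a, Hspa1b and Hspb1 most, at under 20 CPM in every library.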
